A study of Mus musculus with 10 samples.

Results

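The RNA recovered with FLAG-tagged MEX3A was compared between crosslinked and native immunoprecipitation (IP), in the 5 FLAG libraries of a RIP-seq experiment of 10 libraries. They were chosen by their labels, as all libraries of the tagged genotype, and comprise 2 crosslinked libraries (FLAG_C) and 3 native ones (FLAG_NC), in which all 15899 genes of the matrix were measured. The cells were neurospheres from the subependymal zone (SEZ) of the brain of Mex3aFLAG/FLAG mice aged 10 weeks, that is, floating cultures of adult neural stem cells (NSCs) grown with EGF and FGF, collected after 3 days in vitro at passage 5 to 6. The endogenous gene encodes MEX3A with 3 copies of the FLAG peptide at its C-terminus, so the protein is made wherever the gene itself is active. For FLAG_C the cells were treated with 0.5% formaldehyde for 5 min before lysis. FLAG_NC cells were lysed without it, and both were then sonicated and precipitated with the same anti-FLAG antibody. Neurospheres of wild-type mice of the same age and background, with no tag, went through the same protocols (2 crosslinked libraries, WT_C, and 3 native, WT_NC) and show what the beads and antibody recover without the tagged protein. The methods call the samples of a group biological replicates.

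MEX3A is an RNA-binding protein with KH domains that acts on mRNAs after transcription. Formaldehyde joins proteins to RNA and to other proteins, so that complexes present in the living cell survive a harsh lysis. Without it, only RNA that stays bound, or binds again, in the lysate is recovered. Small nucleolar RNAs (snoRNAs) are a convenient set to follow here: box C/D snoRNAs guide methylation and box H/ACA snoRNAs guide pseudouridylation of ribosomal RNA, while the related scaRNAs act in Cajal bodies on spliceosomal RNAs. Library preparation used random hexamers with neither poly(A) selection nor fragmentation, and the RNA was purified so as to keep small RNAs, so that such classes could be measured.

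Sequences are shown for short RNAs that were called or that stand for a class described below, all from GENCODE M21 on GRCm38, 5′ to 3′. The first 3 belong to 1 family of H/ACA snoRNAs, with the ACA box near the 3′ end in capitals. Gm22988 and Gm24130 were called higher in the native pulldown, and Gm25117 had a difference in the same direction that did not pass the test (adjusted p = 0.160). Gm22988 lies at chr11:69669635-69669778 on the minus strand, within Eif4a1 and inside 1 annotated exon of it. Gm24130 lies at chr13:65158258-65158408 on the plus strand, with no other annotated gene over it, and Gm25117 at chr10:111481493-111481636 on the plus strand, within Nap1l1 and outside its annotated exons.
Gm22988: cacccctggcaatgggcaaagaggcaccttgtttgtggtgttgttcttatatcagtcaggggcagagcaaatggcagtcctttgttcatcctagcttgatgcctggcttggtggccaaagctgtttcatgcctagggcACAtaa
Gm24130: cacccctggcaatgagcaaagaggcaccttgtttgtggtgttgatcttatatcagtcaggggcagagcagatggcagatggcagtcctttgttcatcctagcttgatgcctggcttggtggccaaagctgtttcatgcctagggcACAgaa
Gm25117: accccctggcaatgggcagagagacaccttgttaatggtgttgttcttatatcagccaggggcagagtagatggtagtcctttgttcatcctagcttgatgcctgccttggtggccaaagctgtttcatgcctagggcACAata

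The next 4 had differences toward crosslinking, of which 1 passed the test. This was Gm23262 (chr7:111076060-111076227, minus strand, within Eif4g2), and its sequence holds neither pair of boxes in the windows searched. Snora15 (chr5:129794546-129794676, plus strand) lies within Cct6a and carries an ACA box, in capitals. Gm22357 (chr1:161036057-161036139, plus strand, in exons of Gas5) and Snord21 (chr5:107904555-107904648, plus strand, in an exon of Rpl5) stand for the box C/D class, with the C box letters TGATGA and the D box letters CTGA in capitals.
Gm23262: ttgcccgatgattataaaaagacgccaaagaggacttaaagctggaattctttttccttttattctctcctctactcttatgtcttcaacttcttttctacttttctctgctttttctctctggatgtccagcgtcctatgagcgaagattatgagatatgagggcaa
Snora15: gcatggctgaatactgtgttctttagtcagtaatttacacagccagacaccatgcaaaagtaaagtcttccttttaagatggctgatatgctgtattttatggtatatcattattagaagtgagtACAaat
Gm22357: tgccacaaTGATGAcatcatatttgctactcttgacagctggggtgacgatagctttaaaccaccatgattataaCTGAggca
Snord21: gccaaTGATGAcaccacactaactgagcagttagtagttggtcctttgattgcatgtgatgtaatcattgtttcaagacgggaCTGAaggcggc

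Finally, 2 mitochondrial tRNAs were called higher in the native pulldown. They are mt-Tl1, a leucine tRNA at MT:2676-2750 on the plus strand, and mt-Te, the glutamate tRNA at MT:14071-14139 on the minus strand.
mt-Tl1: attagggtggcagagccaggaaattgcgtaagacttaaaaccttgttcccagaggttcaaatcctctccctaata
mt-Te: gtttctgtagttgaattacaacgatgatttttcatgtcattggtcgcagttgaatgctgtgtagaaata

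The matrix holds normalized log2 values whose distribution is nearly the same in each library (the sorted values of the upper part differed by at most 0.0879), so a value is a gene's place among the genes of its library. The number of reads behind a value is unknown, and total amounts of RNA cannot be compared between the protocols. Ties at the lowest value covered 329 genes in FLAG_NC replicate 1 and 178 in FLAG_NC replicate 3, against 1 in each of the other FLAG libraries. FLAG_NC replicate 2 stood apart from the other native libraries. Its mean correlation across genes was 0.960 with the FLAG_C libraries and 0.918 with the other FLAG_NC libraries, whereas replicates 1 and 3 had 0.909 and 0.914 with FLAG_C. Counts without it are given for most lists and classes below. It was singled out after its values were seen, as the native library nearest the crosslinked ones. Leaving it out therefore tends to widen the differences between the protocols and to raise the number of calls. Those counts show how far a result depends on this library and are no independent support for it. All 10 defining markers of neural stem and progenitor cells were in the matrix, compared with 3 of 10 for microglia, 5 of 10 for endothelial and mural cells, 6 of 10 for ependymal cells, 6 of 10 for neurons and 2 of 10 for mature oligodendrocytes.

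Few genes passed the test across all genes (limma, Benjamini-Hochberg adjusted p under 0.05 and a log2 difference of more than 0.58). In the FLAG pulldown 3 genes were higher after crosslinking (0.0189% of 15899) and 8 were higher in native conditions (0.0503%). Those higher after crosslinking were the nuclear RNA Malat1, the small RNA Gm27694 that lies within it, and the snoRNA Gm23262. Those higher in native conditions were mt-Rnr2, mt-Rnr1, mt-Tl1, mt-Te, the snoRNAs Gm22988 and Gm24130, the snoRNA host Eif4a1, and AC161763.1. At an unadjusted p under 0.05 with the same difference, 453 genes (2.85%) were higher after crosslinking and 937 (5.89%) were higher in native conditions, and these shares are the background for the counts below. The values of the groups did not overlap in 2843 genes (17.9%) that were higher after crosslinking and in 2146 (13.5%) that were higher in native. Of all genes, 59.1% had a difference above 0, with a median of 0.11 log2 units. The number of calls depended on single libraries. Without FLAG_NC replicate 2, 202 genes (1.27%) were higher after crosslinking and 767 (4.82%) in native conditions, among them all 3 and all 8. In that fit 12.3% of all genes were past the unadjusted threshold toward crosslinking and 13.7% toward native, and these 4 shares are the background for each count given without that library. Without FLAG_NC replicate 1, and likewise without FLAG_NC replicate 3, 0 genes passed in either direction, with 592 and 637 genes past the unadjusted threshold in the first case and 367 and 556 in the second. Without FLAG_C replicate 1 the counts were 2 and 3, and without FLAG_C replicate 2 they were 0 and 3 (94 and 493 past the unadjusted threshold).

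**Figure D1:**
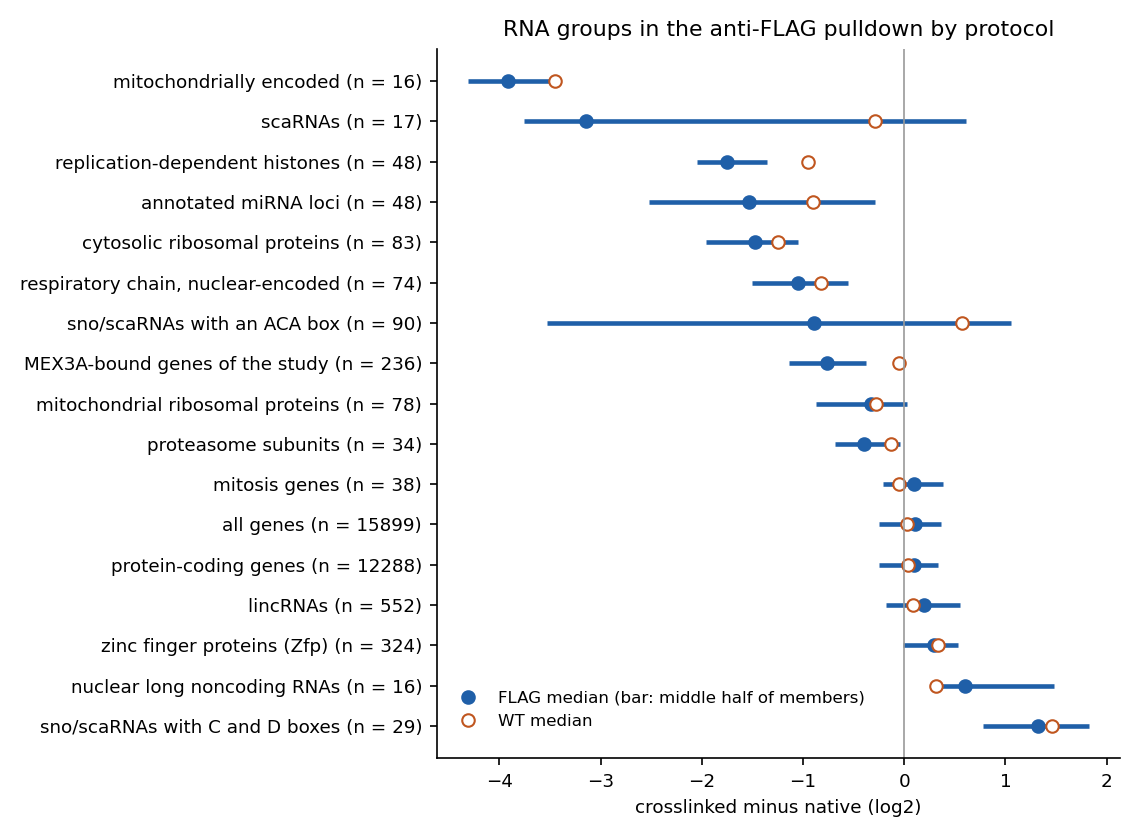
Log2 difference between crosslinked and native libraries (x axis) for groups of RNAs (rows, with the number of members). Filled points are medians over the members in FLAG, bars span their interquartile range and open points are the medians in WT. Mitochondrially encoded RNAs lay lowest (FLAG −3.92, WT −3.45) and small RNAs with C and D boxes highest (FLAG 1.32, WT 1.46).

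Malat1, a long noncoding RNA retained in nuclear speckles, marked the crosslinked pulldown. Its level was 13.79 and 13.79 in FLAG_C and 11.77, 11.85 and 11.91 in FLAG_NC. The groups stood well apart, and Malat1 was higher after crosslinking by 1.95 log2 units (SE 0.155, adjusted p = 0.0185). Malat1 lies at chr19:5795690-5802672 on the minus strand. Gm27694, annotated at chr19:5799000-5799085 inside a Malat1 exon and thus not an independent observation, was at 8.02 and 8.52 in FLAG_C and at 5.99, 6.17 and 5.85 in FLAG_NC. It rose by 2.27 (SE 0.222, adjusted p = 0.0393). The WT libraries gave nearly the same differences, 1.96 for Malat1 and 2.40 for Gm27694.

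Of the list of nuclear long noncoding RNAs only Malat1 passed the adjusted test. Of 16 such RNAs measured, Malat1 included, 7 were past the unadjusted threshold toward crosslinking and 1 toward native, the median difference was 0.60 (WT 0.31), and 9 had groups that did not overlap with crosslinking higher. Together they made up 3.32% and 3.46% of the summed linear values of the FLAG_C libraries and 1.23%, 1.40% and 1.14% of those of the FLAG_NC libraries, and in each of them Malat1 and Gm26917 held more than the rest of the list. In WT the shares were 2.51% and 3.58% in WT_C and 1.72%, 1.79% and 1.59% in WT_NC. Gm26917, a long noncoding RNA annotated as lincRNA, was at 13.16 and 13.39 in FLAG_C and at 11.91, 12.16 and 11.59 in FLAG_NC (difference 1.39, adjusted p = 0.142). That annotation does not place Gm26917 in the nucleus, and the origin of the reads at this locus was not tested. The median of the list was 0.76 without FLAG_NC replicate 2, and 4 of its RNAs passed the adjusted test toward crosslinking and 1 toward native. The others past the unadjusted threshold were Miat (1.93), Tsix (1.80), Xist (1.77), Jpx (0.72) and Kcnq1ot1 (0.66). Neat1, the scaffold of paraspeckles, differed by 0.40 and was not past it, and Peg13, an imprinted RNA, was lower after crosslinking by 1.09. Gm20417, which lies on the strand opposite Malat1 by the coordinates of the matrix, had a difference of 1.54 and is not an independent observation if reads were counted without strand.

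The values of Xist and Tsix need a caution. Xist coats the inactive X chromosome and Tsix is transcribed across it from the opposite strand, yet both had nearly the same value in each FLAG library (Xist at 10.59 and 10.86 in FLAG_C and 9.52, 8.78 and 8.56 in FLAG_NC), so reads of the strands were not told apart for this pair, which counts as 2 of the 7 above. RNA of the Y chromosome was at higher values in the native libraries. Uty was at −1.23 and −3.26 in FLAG_C and at 3.06, 0.98 and 1.87 in FLAG_NC, and Kdm5d was at −3.34 and −4.51 against 1.59, −0.38 and 1.40. In each FLAG library Xist was above both Y-linked genes, but the native libraries held more Y-linked RNA than the crosslinked ones, and in FLAG_NC replicate 1 Uty was above the library's median of 2.89. The part of this in the difference in Xist was not tested.

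Among small nucleolar RNAs, those with C and D boxes and those with an ACA box behaved differently. The 148 snoRNAs and scaRNAs of the matrix were sorted by letters on the transcribed strand: 29 had TGATGA in their first 20 bases and CTGA in their last 15 (C and D boxes), 90 were at least 100 nt long with ACA 2 to 4 bases from the end, and 29 had neither. In the whole annotation the shares were 19.9%, 41.9% and 38.2%, and in the matrix 19.6%, 60.8% and 19.6%. The sorting followed the names, with 15 of 22 Snord genes in the first class and 32 of 34 Snora genes in the second. Of the 29 RNAs with C and D boxes, 12 were past the unadjusted threshold toward crosslinking and 0 toward native, with a median difference of 1.32. Of the 90 with an ACA box, 14 were past it toward crosslinking and 35 toward native, with a median of −0.89, and 2 of the latter passed the adjusted test. The remaining 29 had 8 and 2, a median of 0.99, and 1 call toward crosslinking. Without FLAG_NC replicate 2 the medians were 1.02, −1.57 and 0.91, and the adjusted test called 2, 2 and 2 toward crosslinking and 0, 30 and 1 toward native. The size of these medians rested on single libraries, and leaving out 1 at a time gave 0.77 to 2.02 for C and D boxes and −1.68 to −0.10 for the ACA box. The ACA median was −0.10 without FLAG_C replicate 1, −1.68 without FLAG_C replicate 2 and −0.26 without FLAG_NC replicate 3. With overlapping loci within 0.1 log2 units of each other in each FLAG library counted once, it was −0.63 over 86 RNAs. These still hold both entries of Gm23370, which differ by more than that in FLAG_C replicate 2.

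In WT the box C/D class was again higher after crosslinking (median 1.46, with 9 past the unadjusted threshold toward crosslinking and 0 toward native). The ACA class was not lower there (median 0.57, with 32 and 9). The difference between FLAG and WT was not significant for any of these genes (below). As a share of the summed linear values, RNAs with an ACA box took 0.0781% and 0.171% in FLAG_C and 1.79%, 0.618% and 2.22% in FLAG_NC. The shares in WT were 0.176% and 0.181% in WT_C and 1.18%, 1.51% and 0.121% in WT_NC. WT_NC replicate 3 was therefore below the WT_C libraries, whereas each FLAG_NC library was above both FLAG_C libraries. Much of this share belonged to 6 RNAs of the family of Gm22988 described below. Without them the other 84 took 0.0477% and 0.131% in FLAG_C and 0.475%, 0.0902% and 0.849% in FLAG_NC, so that replicate 2 lay between the crosslinked libraries.

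**Figure D2:**
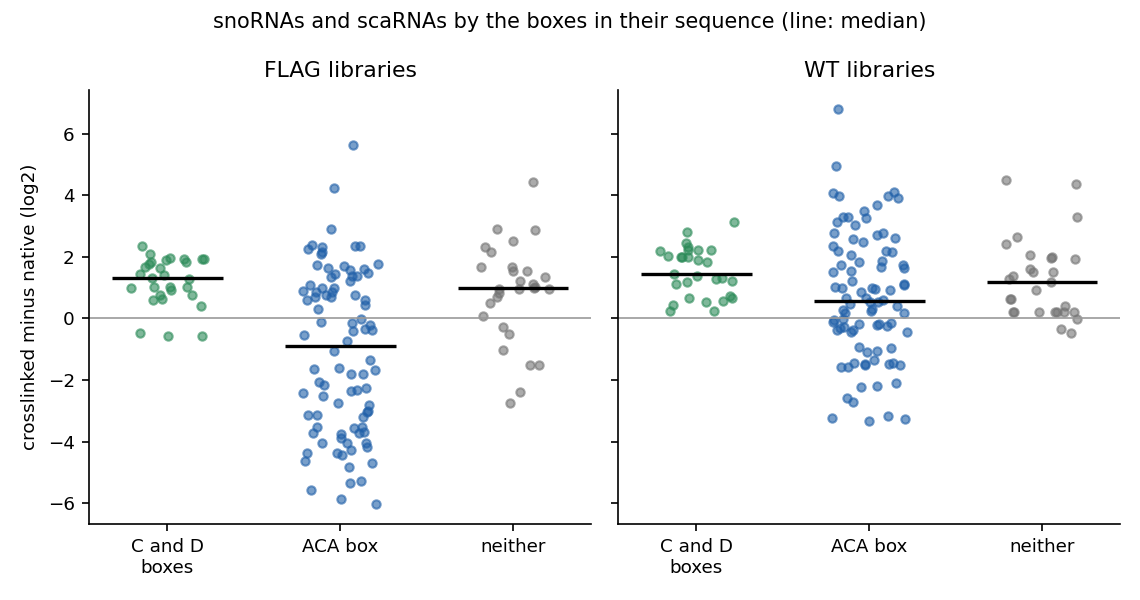
Log2 difference between crosslinked and native libraries (y axis) of each snoRNA and scaRNA, by the boxes found in its sequence (x axis), in FLAG on the left and WT on the right. Each point is 1 RNA and the line is the median. With C and D boxes nearly all points lie above 0 in both, while with an ACA box they spread from −6.03 to 5.63 in FLAG around a median of −0.89, against 0.57 in WT.

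The snoRNA with the largest call toward crosslinking was Gm23262. It was at 5.43 and 6.32 in FLAG_C and at 1.22, 1.82 and 1.30 in FLAG_NC, a difference of 4.43 (SE 0.353, adjusted p = 0.0185), and WT gave 4.37. The crosslinked libraries lay far above the native ones in both genotypes. Snora15 had a difference of 5.63 (adjusted p = 0.154, not called) and of 6.80 in WT. It was at 3.45 and 5.24 in FLAG_C and at −1.70, −2.54 and 0.38 in FLAG_NC, where −1.70 is the lowest value of its library. Its host Cct6a, a subunit of the chaperonin that folds actin and tubulin, differed by 1.46. Of the C/D class, Snord21 was at 2.46 and 3.99 against 0.71, 0.55 and 1.33 (difference 2.36), Gm22357 at 1.84 and 2.57 against 0.46, 0.08 and 0.42 (1.89), and Snord17 at 5.09 and 5.74 against 3.83, 3.97 and 2.59 (1.96). None of these 3 was called (adjusted p = 0.205 to 0.257), although the groups did not overlap in any of them.

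Toward native, the calls fell in the family of H/ACA snoRNAs whose sequences are shown above. Gm22988 was at 7.98 and 8.30 in FLAG_C and at 13.00, 12.11 and 13.16 in FLAG_NC, and Gm24130 was at −3.78 and −3.14 against 3.07, 1.59 and 3.04. Both were lower after crosslinking, Gm22988 by a difference of −4.62 (SE 0.327, adjusted p = 0.0142) and Gm24130 by −6.03 (SE 0.610, adjusted p = 0.0433). Another 4 RNAs of the family, Gm25291, Gm25117, Gm23123 and Gm24727, had differences of −5.87, −5.56, −5.35 and −4.83 (adjusted p = 0.0923, 0.160, 0.152 and 0.150). The 6 sequences are between 86.8% and 98.6% identical to each other, so reads may be shared between the loci, and their values are not independent. In WT the 6 differences lay between −3.35 and −2.58, the same direction and smaller.

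The hosts of this family moved with them. Eif4a1 encodes the RNA helicase of the translation initiation complex and lies at chr11:69666936-69672423 on the minus strand. It was at 8.48 and 9.07 in FLAG_C and at 13.16, 12.46 and 13.24 in FLAG_NC (difference −4.18, SE 0.297, adjusted p = 0.0142). Sec24a, host of Gm25291 and a coat protein of transport vesicles, differed by −4.22. Nap1l1, host of Gm25117 and a histone chaperone, differed by −3.85, and Gsr, host of Gm24727 and the glutathione reductase, by −3.67. Gm25291, Gm25117 and Gm24727 overlap no annotated exon of their hosts in M21. Whether reads in introns were counted for a gene is not given in the sources used here, so the host values cannot be told apart from those of the snoRNAs they hold. Nearly all small RNAs of the matrix share this limit: 126 of 131 snoRNAs, 14 of 17 scaRNAs and 47 of 48 miRNA loci overlap another gene of the matrix, and 19, 4 and 6 of them had values within 0.1 log2 units of the overlapping gene in each FLAG library. Other hosts differed in whether they followed. Snhg9 and Snhg4, noncoding hosts of H/ACA snoRNAs, had differences of −4.14 and −3.03, while Gas5, host of many box C/D snoRNAs, had 0.80. Hosts of other small RNAs with differences toward native stayed near 0, namely 2810403A07Rik (−0.03, with Gm25820 at −4.37), Gsk3b (−0.04, with Gm25617 at −4.03) and Haus6 (−0.27, with Scarna8 at −4.27). Rfwd2 (0.30, with Scarna3a at −3.15) had a difference of the opposite sign. In these hosts the small RNA had a mean level over the FLAG libraries far below that of its host. It was 1.69 against 5.84 for Gm25820 and 0.37 against 6.71 for Scarna3a. In the family above, the 2 levels were close, with 7.53 against 8.29 for Gm25291 and 10.91 against 11.28 for Gm22988. The part of level in which hosts followed was not tested. Eif4a2 (0.93) holds small RNAs of both signs, among them Gm24616 at −2.27 and Snora81 at 2.32. Of 19 snoRNA host transcripts 7 were past the unadjusted threshold toward native and 1 toward crosslinking, with a median of 0.0019 that lay between −0.42 and 0.14 when 1 library at a time was left out, whereas in WT 1 was past it toward native and 7 toward crosslinking, with a median of 0.50. One of the 7 in FLAG, Snhg7 (−3.53), stands in the matrix as a snoRNA of 139 nt that overlaps Snora43 (−3.55), so it shows the snoRNA and not a host.

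Cajal body RNAs and other short structured RNAs were mixed. Of 17 scaRNAs, 10 were past the unadjusted threshold toward native and 3 toward crosslinking (median −3.15, WT −0.28). Gm25820 and Gm23370 each stand under 2 identifiers with the same or nearly the same values and so both entries are among the 10. With overlapping loci within 0.1 log2 units of each other in each FLAG library counted once, the median was −2.47 over 16. Both entries of Gm23370 (−3.21 and −3.15) are still among these, as they differ by more in FLAG_C replicate 2. Counting Gm23370 once would bring the median nearer to 0. The adjusted test called 7 scaRNAs toward native and 1 toward crosslinking when FLAG_NC replicate 2 was left out. Scarna13 was at 4.57 and 4.69 in FLAG_C and at 8.79, 5.72 and 9.93 in FLAG_NC, and Gm22767 at 2.07 and 3.79 against 9.00, 5.44 and 6.47. Both had FLAG_NC replicate 2 as the native library nearest to the crosslinked ones. Toward crosslinking were Gm25395 (1.83), Scarna2 (1.11) and Scarna17 (0.91). Of 48 annotated miRNA loci, 31 were past the unadjusted threshold toward native and 1 toward crosslinking (median −1.53, WT −0.90), and without FLAG_NC replicate 2 the adjusted test called 18 and 2. The exception with all libraries was AC154540.1, which overlaps the snoRNA Snora81 and had its difference (2.33 and 2.32). Several loci with differences toward native overlap a gene of another group here with a similar difference. Examples are Gm44367 (−2.34) over the histone gene Hist1h2ai (−2.32), AL626808.1 over n-R5s193 (both −6.16) and AC121821.1 (−3.68) over Snora74a (−3.71). Others differed from the gene they overlap, such as Gm22643 (−1.16) in Maml2 (0.58). The miRNA counts are therefore in part not independent of those groups. Whether these values come from mature miRNA or from longer RNA over the same locus was not tested. Rmrp, the RNA of the RNase MRP particle, was higher after crosslinking by 2.14 (10.95 and 11.55 against 10.03, 8.05 and 9.25). The signal recognition particle gene Rn7s2 was lower by 2.29 and the vault RNA Vaultrc5 by 2.76, whereas Rn7sk, the RNA that holds the elongation factor P-TEFb inactive, differed by 0.32. Of 7 genes annotated as rRNA, the 3 genes n-R5s193, n-R5s194 and n-R5s136 of the 5S type were past the unadjusted threshold toward native (−6.16, −4.73 and −3.55). The share of the rRNA class in the summed values was 12.9% in each library, because its top gene holds the same highest value, 16.90, in all of them.

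RNA encoded by the mitochondrial genome marked the native pulldown. All 16 such RNAs measured were past the unadjusted threshold toward native, 4 of them passed the adjusted test, and the groups overlapped in none. Their median difference was −3.92, that is, lower after crosslinking, and in WT it was −3.45. Without FLAG_NC replicate 2 the median in FLAG was −4.34 and 15 of the 16 passed the adjusted test. Their share of the summed linear values was 0.237% and 0.259% in FLAG_C and 2.24%, 1.59% and 2.18% in FLAG_NC, against 0.286% and 0.232% in WT_C and 0.977%, 1.20% and 0.771% in WT_NC.

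The ribosomal RNAs of the mitochondrion had the smallest standard errors of the 16. mt-Rnr2, the large subunit rRNA at MT:1094-2675, was at 10.26 and 10.42 in FLAG_C and at 13.24, 13.24 and 13.39 in FLAG_NC (difference −2.95, SE 0.162, adjusted p = 0.00775). mt-Rnr1, the small subunit rRNA at MT:70-1024, was at 9.77 and 9.87 against 12.70, 11.99 and 12.70 (−2.64, SE 0.253, adjusted p = 0.0381). For both, the difference in WT was smaller, −1.79 and −1.46. The tRNA mt-Tl1 was at −1.70 and −2.09 in FLAG_C and at 4.13, 2.57 and 3.71 in FLAG_NC (−5.37, SE 0.513, adjusted p = 0.0381). mt-Te was at −1.35 and −2.09 against 2.65, 2.51 and 3.65 (−4.66, SE 0.485, adjusted p = 0.0469). In both tRNAs each native library was above each crosslinked one by more than the spread within either group. The 7 mitochondrial mRNAs, which encode subunits of the respiratory chain, had differences from −4.73 to −3.83 and adjusted p-values of 0.0585 to 0.0923, just short of the threshold. mt-Co1, of cytochrome oxidase, was at 4.90 and 4.94 in FLAG_C and at 10.48, 8.55 and 9.91 in FLAG_NC, and mt-Cytb, of complex III, at 4.86 and 5.02 against 10.13, 8.28 and 9.40. The crosslinked libraries gave nearly the same value for each, and the native libraries spread more widely, with replicate 2 lowest.

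**Figure D3:**
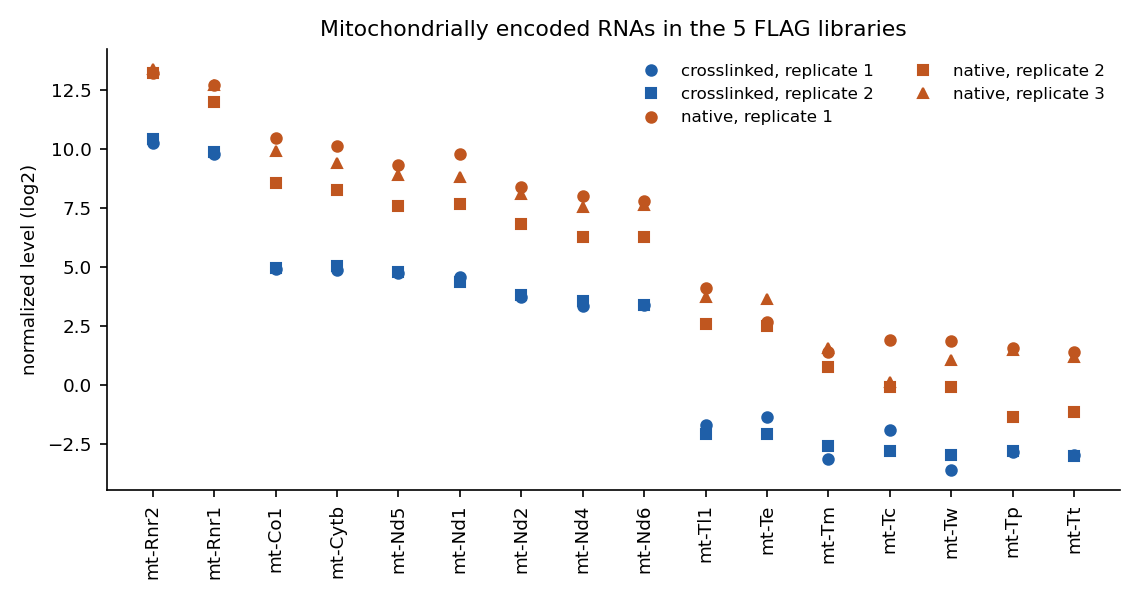
Normalized level (log2, y axis) of each mitochondrially encoded RNA (x axis: rRNAs, then mRNAs, then tRNAs) in the 5 FLAG libraries, blue for crosslinked and orange for native, with a symbol for each replicate. Each native point lies above both crosslinked points of its gene, and native replicate 2 is usually the lowest of the native ones (mt-Co1 8.55 against 10.48 and 9.91).

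AC161763.1, an annotated lincRNA of 168 nt at chr7:144914470-144914637 on the plus strand with no other annotated gene over it, had a similar profile. It was at 0.17 and −0.29 in FLAG_C and at 3.64, 3.64 and 3.36 in FLAG_NC (difference −3.61, SE 0.299, adjusted p = 0.0198, WT −3.29). Of its 139 overlapping stretches of 30 bases, 0 occur in the mitochondrial genome.

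Nuclear mRNAs for the translation and energy machinery were also higher in the native pulldown, though no gene of the next 3 lists passed the adjusted test with all 5 libraries. Of 83 cytosolic ribosomal protein mRNAs, 72 were past the unadjusted threshold toward native and 0 toward crosslinking, with a median difference of −1.47 (WT −1.25, with 64 and 1). The median level of the list was 2.83 and 2.77 in FLAG_C and 4.73, 3.86 and 4.49 in FLAG_NC. Each native library was thus above both crosslinked ones, with replicate 2 the closest. Rps27, of the small subunit, was at 2.57 and 2.63 against 5.26, 4.60 and 4.93 (−2.33, adjusted p = 0.0602), and Rpl41, the shortest protein of the large subunit, at 2.03 and 1.77 against 5.02, 4.00 and 4.78 (−2.70, adjusted p = 0.0923). Without FLAG_NC replicate 2, 63 of the 83 passed the adjusted test toward native.

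Nuclear-encoded subunits of the respiratory chain followed the ribosomal proteins. Of 74 genes, 47 were past the unadjusted threshold toward native and 0 toward crosslinking (median −1.05, WT −0.82), and without FLAG_NC replicate 2, 37 passed the adjusted test. Atp5k, a small subunit of ATP synthase, was at 0.86 and 0.98 in FLAG_C and at 3.74, 3.03 and 4.24 in FLAG_NC, and Uqcr11 of complex III at 0.98 and 0.81 against 3.83, 2.85 and 3.43. Atp5b, the catalytic subunit of ATP synthase with a longer mRNA, differed by −1.45. Mitochondrial ribosomal proteins, encoded in the nucleus, were lower by less (median −0.33, WT −0.28), with 14 of 78 past the unadjusted threshold toward native and 1, Mrpl1, toward crosslinking. Mrpl34 was the member farthest toward native by p-value, at −2.08 and −2.07 against 1.35, 1.35 and 1.07. When FLAG_NC replicate 2 was left out, the adjusted test called 6 of these genes toward native and 2 toward crosslinking.

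Among translation factors 12 of 64 were past the unadjusted threshold toward native and 0 toward crosslinking (median −0.24, WT −0.06), and the 1 call of the list was Eif4a1, which holds the snoRNA Gm22988. Eif1b, which takes part in start codon selection, differed by −1.39. Of 34 proteasome subunits 6 were past it toward native and 0 toward crosslinking (median −0.40, WT −0.13), with Psmb6 (−1.33) and Psmd8 (−1.12) the members with the smallest p-values. Heat shock chaperones had 5 of 59 toward native, namely Hspa8 (−1.31), Dnajc6 (−1.26), Hspe1 (−1.09), Cct2 (−0.73) and Cct7 (−0.70), and 1 toward crosslinking, the snoRNA host Cct6a. With FLAG_NC replicate 2 left out, 11 translation factors, 4 proteasome subunits and 6 chaperones passed the adjusted test toward native, and 1 translation factor toward crosslinking. Leaving out 1 library at a time moved the median to between −0.41 and −0.16 for translation factors and between −0.52 (without FLAG_NC replicate 2) and −0.21 (without FLAG_NC replicate 1) for proteasome subunits.

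Replication-dependent histone mRNAs, which end in a stem-loop in place of a poly(A) tail, were lower after crosslinking as a list. Of 48 measured, 38 were past the unadjusted threshold toward native and 0 toward crosslinking, 43 had groups that did not overlap, and the median difference was −1.75. The median level was 1.12 and 0.64 in FLAG_C and 3.44, 1.70 and 2.66 in FLAG_NC, while in WT the median difference was −0.95. Hist1h4c was at 1.48 and 0.83 in FLAG_C and at 3.83, 2.72 and 3.58 in FLAG_NC, and Hist2h3b at −1.84 and −2.04 against 2.12, 0.39 and 1.96. No histone gene passed the adjusted test with all libraries, and 23 of the 48 did so without FLAG_NC replicate 2. The lists of DNA replication and of mitosis genes had medians of 0.12 and 0.10, with 1 of 36 (Orc6, 0.84) and 1 of 38 (Kif23, 0.75) past the unadjusted threshold toward crosslinking and 0 toward native in each list. These medians were −0.0004 and −0.08 without FLAG_NC replicate 2, where 7 of 36 and 5 of 38 were past the unadjusted threshold toward native and 1 gene of each list passed the adjusted test in that direction, shares close to or below those of all genes except for the 7 replication genes.

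mRNAs of the actin system lay on the native side as well. Of 24 thymosins, actins and actin-binding proteins, 7 were past the unadjusted threshold toward native and 0 toward crosslinking (median −0.40, WT −0.14). The thymosin Tmsb10, which sequesters actin monomers, was at 1.98 and 2.48 in FLAG_C and at 4.56, 3.58 and 4.62 in FLAG_NC. Cfl1, which severs actin filaments, was at 4.88 and 4.64 against 7.65, 5.90 and 6.86, and Actb at 7.18 and 6.98 against 9.59, 7.61 and 8.92. The groups did not overlap for any of the 3. In both Cfl1 and Actb native replicate 2 was the native library closest to the crosslinked ones, and without it 5 of the 24 passed the adjusted test toward native. The median of the list lay between −0.59 and −0.24 when 1 library at a time was left out.

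Genes of stem cell identity were measured in both protocols, and the size of their difference depended on single native libraries. The median level of the 10 neural stem and progenitor markers was 6.39 and 6.27 in FLAG_C and 7.67, 6.36 and 7.66 in FLAG_NC, where native replicate 2 lay between the crosslinked libraries. Their median difference was −0.46 with 2 of 10 past the unadjusted threshold toward native, and without replicate 2 it was −0.84 with 6 past it and 4 passing the adjusted test. It was −0.29 without FLAG_NC replicate 1 and −0.20 without FLAG_NC replicate 3. Of 29 neural stem cell and astroglial genes 3 were past the unadjusted threshold toward native: Apoe (−1.43), a lipid carrier, Vim (−1.30), an intermediate filament protein, and Fabp7 (−1.22), a fatty acid carrier of radial glia. Without replicate 2, 11 of the 29 were past it and 6 passed the adjusted test, all toward native (13.7% and 4.82% of all genes). In bulk libraries fewer cells of a type and less RNA per cell cannot be told apart, and input RNA was not analysed here, so recovery by the IP and abundance in the lysate cannot be told apart either. Neuroblast genes had a median of 0.08 with 1 of 14 toward native (Cd24a, −1.56), and without replicate 2 the adjusted test called 3 of them toward native. The sign of this median rested on single libraries, and leaving out 1 at a time gave −0.20 to 0.21. Synaptic adhesion and glutamate receptor genes had 2 of 36 toward crosslinking, Gria2 (0.67), a subunit of the AMPA receptor, and Lsamp (0.75), a cell adhesion protein, and 0 toward native. Without replicate 2 the adjusted test called 3 of these 36 toward crosslinking.

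Zinc finger genes formed a large list on the crosslinked side. These transcription factors, most of them repressors that bind repeats or promoters through C2H2 fingers, had 41 of 324 members past the unadjusted threshold toward crosslinking (12.7%, beside 2.85% of all genes) and 4 toward native, with a median of 0.29 (WT 0.33, with 44 and 1). The difference per gene was small. Zfp942 was at 4.23 and 4.21 in FLAG_C and at 2.83, 3.40 and 2.93 in FLAG_NC (1.17, adjusted p = 0.250), and Zfp945 at 4.49 and 4.27 against 3.44, 3.48 and 3.35 (0.96, adjusted p = 0.257). The 4 genes toward native were Zfp791 (−1.64), Zfp768 (−1.29), Zfp46 (−1.17) and Zfp385a (−0.58). Zfp791 was at 8.98 and 8.42 against 11.30, 9.07 and 10.65 and was higher after crosslinking in WT by 0.62. Without FLAG_NC replicate 2, 10 zinc finger genes passed the adjusted test toward crosslinking and 9 toward native, beside 1.27% and 4.82% of all genes.

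Among hnRNPs and splicing factors, which package and splice nascent RNA, 5 of 67 (7.46%) were past the unadjusted threshold in each direction. The shares of all genes were 2.85% toward crosslinking and 5.89% toward native. Those toward crosslinking were Prpf39 (0.79), Hnrnph3 (0.71), U2af1 (0.69), Srsf11 (0.67) and Srsf5 (0.66). Those toward native were Sf3b5 (−1.81), Snrpd2 (−1.67), Hnrnpa0 (−1.50), Hnrnpab (−1.16) and Snrpb (−0.95). Prpf39, an alternative splicing factor of the U1 particle, was measured most evenly, at 6.01 and 6.02 in FLAG_C and at 5.24, 5.19 and 5.23 in FLAG_NC. The adjusted test called 1 gene of the list toward crosslinking and 7 toward native without FLAG_NC replicate 2.

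The large annotation classes differed little in their medians. Protein-coding genes had a median difference of 0.09 (WT 0.04), with 337 of 12288 past the unadjusted threshold toward crosslinking and 720 toward native, and 1 adjusted call, Eif4a1. With FLAG_NC replicate 2 left out the counts were 1342 and 1807, with 135 and 629 adjusted calls. Long intergenic RNAs had 0.20 (WT 0.08), with 26 and 17 of 552, and 106 and 46 without that library, which put the median at 0.34, against 0.10 without FLAG_NC replicate 1. Antisense RNAs had 12 and 57 of 1081 and a median of 0.11. Both shares were below those of all genes. Without FLAG_NC replicate 2 the counts were 172 and 116. The share toward crosslinking was then above that of all genes in that fit (12.3%), and the share toward native was below it (13.7%). The median lay between 0.02 and 0.24 when 1 library at a time was left out. Processed pseudogenes, which are copies of spliced mRNAs, had 0 and 31 of 203 and a median of −0.14 (WT −0.35). The sign of this median rested on FLAG_NC replicate 2, without which it was 0.08, with 14 past the unadjusted threshold toward crosslinking and 37 toward native, beside 12.3% and 13.7% of all genes. Their reads cannot be separated from those of the parent mRNAs with certainty, as in Tpt1-ps3, at −2.68 and −2.31 in FLAG_C and 1.99, 0.51 and 1.33 in FLAG_NC. Sense intronic transcripts had 4 and 2 of 138 and a median of 0.31 (WT −0.09), which lay between 0.01 and 0.61 when 1 library at a time was left out, with counts of 34 and 3 without FLAG_NC replicate 2.

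Coding genes on the native side were short. The 718 protein-coding genes past the unadjusted threshold toward native that the annotation describes had a median gene span of 5424 bp, a median longest transcript of 1694 nt, 4 exons and 53.2% GC. The 337 toward crosslinking had 20310 bp, 3191 nt, 8 exons and 45.6% GC, and all 12276 protein-coding genes had 28600 bp, 3570 nt, 8 exons and 49.4% GC. Genes toward native were thus shorter than coding genes in general on each measure, and those toward crosslinking had the same median exon number, a somewhat shorter transcript, a shorter gene span and lower GC. By gene span the share toward crosslinking was highest in the second of 5 bins (5.09%) and lowest in the fifth (0.896%). Of the 2456 genes with the shortest span, 20.4% were past the unadjusted threshold toward native and 2.04% toward crosslinking, with a median difference of −0.31, compared with 0.652%, 0.896% and 0.21 for the 2455 with the longest. Transcripts under 1000 nt (480 genes) had a median of −0.56 (WT −0.36), and 39.2% of them were past the threshold toward native. With ribosomal protein, respiratory chain, histone and mitochondrial genes set aside, 375 such genes remained, with a median of −0.27 and 25.1% toward native. The lists above therefore did not hold all of the short genes on the native side. By GC content, 5.29% of the lowest bin were past the threshold toward crosslinking and 1.59% toward native, against 2.65% and 10.4% of the highest. These features are related to one another and to level, and their separate parts were not tested.

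**Figure D4:**
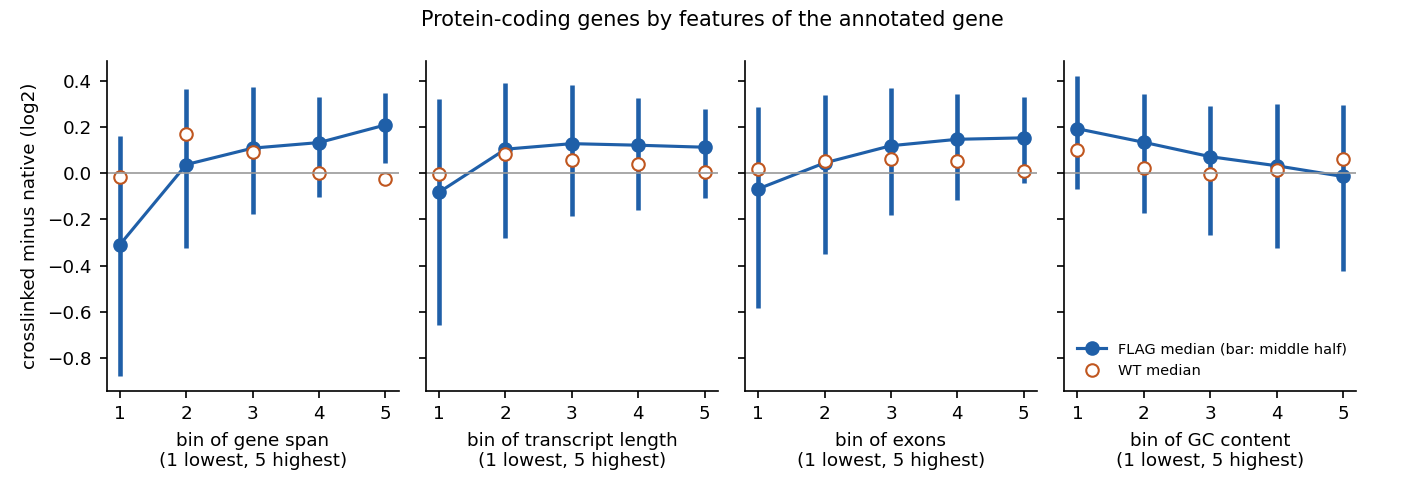
Median log2 difference between crosslinked and native libraries (y axis) of protein-coding genes in 5 bins of gene span, longest transcript, exon number and GC content (x axes, 1 lowest to 5 highest). Filled points are FLAG medians with the interquartile range as bars, and open points are WT medians. In FLAG the shortest genes lie lowest (−0.31) and the longest highest (0.21), and for gene span the WT medians do not follow this order (−0.02 in both the shortest and the longest bin).

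Mex3a itself was at 3.92 and 4.16 in FLAG_C and at 5.95, 4.03 and 6.10 in FLAG_NC. The groups overlapped through native replicate 2, and the difference of −1.32 was past neither the adjusted nor the unadjusted threshold. None of the other 3 Mex3 genes was past the unadjusted threshold, with differences from −0.65 to 0.10. Without replicate 2 the difference of Mex3a was −1.98 and passed (adjusted p = 0.0177), 3 of the 4 Mex3 genes were past the unadjusted threshold toward native, and the median of the 4 was −1.03. The 238 genes that the study lists as MEX3A-bound were chosen on these libraries, by comparison with WT in both protocols, so that their direction here is no independent evidence. Of 236 in the matrix, 50 were past the unadjusted threshold toward native (background 5.89%) and 1, Gm42047, toward crosslinking. None passed the adjusted test with all 5 libraries, and 95 passed it toward native without FLAG_NC replicate 2. Their median difference was −0.76 in FLAG, −0.05 in WT, and in FLAG between −1.21 and −0.44 when 1 library at a time was left out. In WT, 27 of them were past the unadjusted threshold toward native and 2 toward crosslinking, beside 4.24% and 3.11% of all genes. Their share of the summed values was 0.542% and 0.548% in FLAG_C, and 1.18%, 0.487% and 1.39% in FLAG_NC. Native replicates 1 and 3 were thus above the crosslinked libraries and replicate 2 was below, while the WT libraries held between 0.239% and 0.396%. Fth1, the ferritin heavy chain, was at 3.22 and 2.82 in FLAG_C and at 6.04, 4.62 and 5.65 in FLAG_NC. Ifitm3, a membrane protein induced by interferon, was at 1.24 and 0.89 against 3.62, 2.87 and 2.97. Of the 17 bound genes that the study discusses by name, 5 were past the unadjusted threshold toward native: Olig1 (−2.26), a transcription factor of oligodendrocyte progenitors, Apoe (−1.43), Tpt1 (−1.28), a growth-related protein, Mmp14 (−1.02), a membrane-bound protease, and Sdc3 (−1.02), a heparan sulfate proteoglycan. None of the 17 was past it toward crosslinking (median −0.77, WT −0.33).

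The same comparison in the untagged pulldown, which shares no library with the tagged one, called 4 genes higher after crosslinking (0.0252%) and 2 higher in native (0.0126%). At the unadjusted threshold the counts were 494 (3.11%) and 674 (4.24%). Over all genes the differences of FLAG and WT had a correlation of 0.615, given as a description across genes that are not independent. The test of a difference between FLAG and WT in the effect of crosslinking (interaction in limma over all 10 libraries) called 0 genes (0% of 15899, smallest adjusted p = 0.970) and put 66 (0.415%) past the unadjusted threshold. Without FLAG_NC replicate 2 it called 1. For single genes, what each protocol recovered with the tagged protein was therefore not shown to differ from what it recovered without it, in groups of 2 or 3 libraries.

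**Figure D5:**
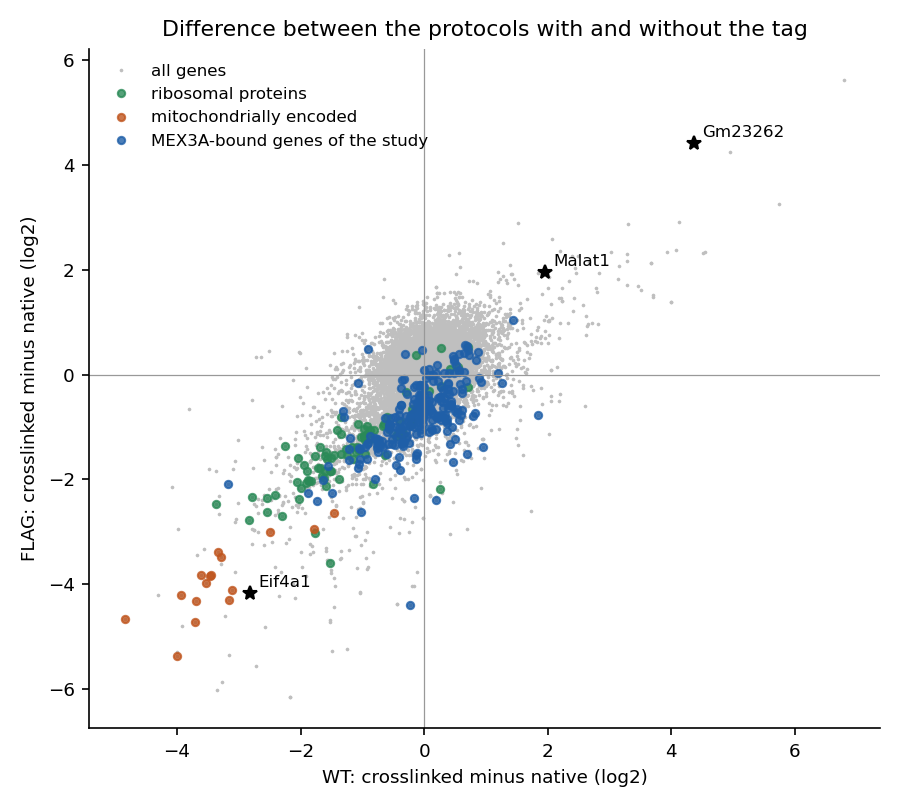
Log2 difference between crosslinked and native libraries of each gene in WT (x axis) and FLAG (y axis), with all genes in grey, lists in colour and 3 called genes as stars. Mitochondrially encoded RNAs and ribosomal proteins lie low on both axes (medians −3.92 and −1.47 in FLAG, −3.45 and −1.25 in WT). The MEX3A-bound genes of the study have a median of −0.76 in FLAG and −0.05 in WT. They were chosen by comparing FLAG with WT in these libraries, so this contrast is no independent evidence.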

How the data were processed

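The 5 FLAG libraries were compared as 2 crosslinked against 3 native, with 5 WT libraries beside them. The authors trimmed the reads (Cutadapt, Trimmomatic), aligned them with HISAT2 (GRCm38) and used featureCounts with GENCODE M16 for gene counts, which DESeq2 normalized according to the methods. The deposited matrix of 15899 genes holds log2 values with 1 distribution for all libraries, so depth is unknown, no counting error can be given and no count model was used. Values were used as deposited, without a pseudocount or further filter. limma 3.58.1 (R 4.3.3; lmFit, eBayes with trend) tested crosslinked minus native, two-sided, with Benjamini-Hochberg adjustment over all genes. Calls needed an adjusted p under 0.05 and a log2 difference over 0.58, the thresholds of the study, and the counts at an unadjusted p used the same difference. A fit of all 4 groups gave the interaction. The list medians and counts are descriptions without a test.

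GENCODE M21 gave gene features and sequences (15864 genes found by identifier, 14849 with the same start and end). Named genes are the 10 with the largest difference among the calls in each direction, filled by p-value where fewer passed, for each class or list up to 2 by level and 2 by p-value, the Mex3 genes, the bound genes that the paper names, and genes of counts up to 5. The hosts of snoRNAs, further members of their families and the Y-linked genes were chosen after their values were seen. One item is not reported here. The members and lists were chosen with earlier results of these data known. Summed linear values are 2 to the power of the log2 values, added up per library. Python 3.11.15, pandas 2.3.3 and matplotlib 3.10.9 were used. Alternatives were pseudocounts of 1 and 8, a minimum mean linear value of 10, removal of genes at a library's lowest value, median centring, quantile normalization, TMM factors, a replicate block, array weights, the 4-group fit, eBayes without trend or robust, a threshold of 1, and each library left out. Lists without FLAG_NC replicate 2, overlapping loci counted once and the ACA share without 1 family were added after the data were seen.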

Additional observations from a re-analysis of the deposited data

How the results depend on the processing

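The counts of calls (3 toward crosslinking and 8 toward native) moved with several choices. Array weights, which gave FLAG_NC replicate 2 the lowest weight, raised them to 270 and 762, and the 4-group fit gave 7 and 63, which held 1 of the 3 and 3 of the 8, whereas eBayes without a trend gave 0 and 0 (smallest adjusted p = 0.0618, with 494 and 926 genes past the unadjusted threshold). Toward native, a pseudocount of 1 gave 5, a pseudocount of 8 gave 4 and a minimum mean linear value of 10 gave 3. Leaving out 1 FLAG library at a time gave 0 to 202 toward crosslinking and 0 to 767 toward native, and for the difference between FLAG and WT 0 to 1 gene. The direction of each list median below held under every alternative run, but not its size. With a pseudocount of 8 the median was −2.78 for mitochondrially encoded RNAs (−3.10 with 1), −0.84 for ribosomal proteins, −0.48 for the respiratory chain, −0.56 for histones, 0.10 for zinc finger genes (0.23 with 1, and 0.22 with TMM factors), 0.26 for C and D boxes, −0.32 for miRNA loci and −0.19 for scaRNAs (−0.99 with 1). A minimum mean of 10 put the ACA box median at −2.38, and array weights put that of the bound genes named by the study at −1.15. Leaving out 1 library gave 0.77 to 2.02 for C and D boxes and −1.25 to −0.64 for the bound genes named by the study. Low values, where a pseudocount acts most, are thus the least certain here. The cause of the other changes was not tested.

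With the replicate block (replicates 1 and 2 of both protocols as pairs) 56 and 378 genes were called, among them all 3 and all 8. The numbers were not shown to pair the samples, since only 2 pairs exist, and this fit leaves 1 residual degree of freedom. The deviations of same-numbered libraries from their group means correlated at 0.178 and 0.154. With 2 FLAG_C libraries their deviations are exact opposites, so swapped numbers gave the same sizes with the sign turned (−0.178 and −0.154). These values therefore cannot decide the pairing.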

Other observations

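A rule set after the values were seen took protein-coding genes past the unadjusted threshold toward crosslinking, off the X chromosome, with a mean level of at least 3 and no small RNA within them, and found 174. The smallest p-values among them belonged to Cnpy1 (1.34), Ttc14 (0.98), Rbm39 (0.86), Wsb1 (1.02) and Ccnl1 (0.94), and the first 12 also held Prpf39 (0.79) and Clk1 (1.08). The list of hnRNPs and splicing factors had 7.46% of its members past that threshold in each direction. Over all genes the shares were 2.85% toward crosslinking and 5.89% toward native. As the names here were chosen after their values were seen, no theme is drawn from them. Rbm39 is a splicing factor, Ccnl1 a cyclin of nuclear speckles and Clk1 a kinase of SR splicing proteins. Rbm39 was at 7.42 and 7.38 in FLAG_C and at 6.61, 6.37 and 6.64 in FLAG_NC, and Ccnl1 at 4.83 and 4.93 against 4.00, 3.83 and 3.97. The groups did not overlap in either, and the differences in WT were 0.80 and 1.11. None of these genes passed the adjusted test, the smallest adjusted p among them being 0.191.

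The WT libraries were not alike in sex-linked RNA. Xist was at −0.71 in WT_C replicate 1 and 10.71 in WT_C replicate 2, and at 3.13, 7.63 and 0.68 in WT_NC replicates 1 to 3, while Uty was at 7.08, −2.12, 7.26, 6.12 and 6.98. WT_NC replicate 2 thus held both RNAs at high level. The differences of Xist and Tsix between the protocols in WT rest on this mixture.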
